A study of Homo sapiens with 8 samples.

Results

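Expression of 9 genes of MHC class I antigen presentation was examined in sorafenib-resistant and parental liver cancer cells. The genes were chosen by name and not by their values, though with earlier results of these data known. They are the rows whose Ensembl identifier carries the symbol HLA-B, HLA-C, HLA-E, B2M, TAP1, TAP2, TAPBP, NLRC5 or IRF1, 9 of 63241 rows in all. The libraries came from HepG2 and Huh7, established human liver cancer cell lines labelled as hepatocellular carcinoma cells. HepG2 WT and Huh7 WT are the sensitive cells, labelled with the treatment control. HepG2 SR and Huh7 SR were derived from them by stepwise exposure to sorafenib, a multikinase inhibitor, and are labelled with the treatment sorafenib. Each of the 4 groups has 2 libraries of polyadenylated RNA, 8 in all, and each SR line was compared with its own WT line. The sources used here do not say whether the SR lines are clones or whether the 2 libraries of a group came from separate cultures, so the p-values measure only the spread between these libraries, which may be technical.

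An MHC class I molecule shows a short peptide from inside the cell to T cells and natural killer cells. It consists of a polymorphic heavy chain (HLA-B, HLA-C or, for the less variable form that is read mainly by natural killer receptors, HLA-E) and the light chain beta-2 microglobulin, encoded by B2M. TAP1 and TAP2 form the transporter that moves peptides into the endoplasmic reticulum, and tapasin, encoded by TAPBP, bridges the transporter and the empty heavy chain. NLRC5 is a coactivator that binds class I promoters through the RFX complex, and IRF1 is a transcription factor induced by interferon gamma that binds interferon-stimulated elements. Hepatocytes carry little class I at rest and more after interferon.

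A promoter sequence from RefSeq was matched to 7 of the 9 genes by symbol. The 250 bases before the start are printed for a heavy chain, the light chain, both transporter subunits and IRF1, because interferon-type or STAT-type letters recur in them. All are written 5' to 3' on the strand of the gene. The letters searched on both strands were GAAANNGAA and GAANNGAA (interferon regulatory factor type, 2 spacings), TTCNNNGAA (STAT type), TGACG (the core of a cyclic AMP response element) and CCAAT (bound by NF-Y), and capitals mark every match, with overlapping matches run together.
HLA-B (GRCh38.p14, chr6:31357180-31357429, minus strand): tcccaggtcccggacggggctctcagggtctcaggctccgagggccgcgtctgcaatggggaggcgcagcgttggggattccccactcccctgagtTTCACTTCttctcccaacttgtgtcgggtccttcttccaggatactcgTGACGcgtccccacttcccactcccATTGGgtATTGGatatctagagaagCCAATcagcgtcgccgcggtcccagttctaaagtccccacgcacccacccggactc
B2M (GRCh38.p14, chr15:44711267-44711516, plus strand): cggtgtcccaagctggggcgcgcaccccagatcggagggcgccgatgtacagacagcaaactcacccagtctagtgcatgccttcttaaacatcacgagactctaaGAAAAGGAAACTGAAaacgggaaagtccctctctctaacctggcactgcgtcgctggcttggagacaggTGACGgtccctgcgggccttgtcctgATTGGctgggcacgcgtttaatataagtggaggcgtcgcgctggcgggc
TAP1 (GRCh38.p14, chr6:32853705-32853954, minus strand): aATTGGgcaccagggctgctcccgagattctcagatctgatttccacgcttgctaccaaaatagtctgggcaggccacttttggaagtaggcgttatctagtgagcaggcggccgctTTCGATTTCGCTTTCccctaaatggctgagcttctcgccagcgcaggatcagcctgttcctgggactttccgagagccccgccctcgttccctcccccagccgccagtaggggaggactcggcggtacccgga
TAP2 (GRCh38.p14, chr6:32838740-32838989, minus strand): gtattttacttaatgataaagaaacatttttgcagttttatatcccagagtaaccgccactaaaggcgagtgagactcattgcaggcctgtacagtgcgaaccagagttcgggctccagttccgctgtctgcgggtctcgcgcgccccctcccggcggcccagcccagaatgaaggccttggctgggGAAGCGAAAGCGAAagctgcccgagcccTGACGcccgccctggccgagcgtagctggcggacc
IRF1 (GRCh38.p14, chr5:132490774-132491023, minus strand): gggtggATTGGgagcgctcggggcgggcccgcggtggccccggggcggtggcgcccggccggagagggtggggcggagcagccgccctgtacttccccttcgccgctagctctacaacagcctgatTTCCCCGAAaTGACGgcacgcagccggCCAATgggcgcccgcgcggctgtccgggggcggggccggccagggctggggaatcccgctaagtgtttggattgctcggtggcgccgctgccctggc

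GAAANNGAA was found before the starts of B2M, TAP1, TAP2 and TAPBP, and in 6.88% of 35116 promoter windows of the same length. In B2M it began at position -144 and again at -138, counted back from the start, so that the matches share letters. In TAP1 overlapping matches began at -133 and -127, and in TAPBP at -20 and -14. In TAP2 the match at -58 shares letters with a match to the other spacing at -63. GAANNGAA was found before HLA-B at -154, before HLA-C at -150 and before TAP2, and in 16.2% of all windows. IRF1 held TTCNNNGAA at -124, which 6.57% of all windows held, followed by TGACG at -114. TGACG was also found before HLA-B, HLA-C, B2M and TAP2 (21.2% of all windows), and CCAAT before all of the 7 genes other than TAP2 and TAPBP (32% of all windows). A second start of TAP1 held only a match to TTCNNNGAA, at -189. These letters were chosen after the sequences were seen, and a match is a description of the sequence and not a measured binding site.

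Levels are in FPKM, fragments counted relative to transcript length and library total, so that genes of different length can be compared. The read depth of the libraries was not analysed here. The number of genes with an FPKM of 1 or more ran from 12829 to 13386 by library. Across genes, 3 libraries stood apart from the other 5, namely those labelled HepG2 SR replicate 2 and replicate 1 of both Huh7 groups. Pearson's r of log2(FPKM + 1) was 0.914 to 0.977 among those 5, which carry both cell line labels, and 0.731 to 0.819 between them and the other 3. The replicate 1 libraries of Huh7 were alike (r = 0.965) and less like HepG2 SR replicate 2 (0.815 and 0.846). Labels were kept, and every group named below is a label. Of 10 hepatocyte markers, 9 or 10 were at an FPKM of at least 1 in each library, and their summed FPKM ran from 651 to 7710. ALB, encoding albumin, was at 12 and 42.3 in the replicate 1 libraries of Huh7 and between 604 and 4710 in the other libraries. Leukocytes carry class I at high levels, but their defining markers PTPRC and CD3E were at or below 0.0415 in every library. Of the 7 leukocyte markers 2 to 4 were at an FPKM of at least 1, with a summed FPKM of 61.8 to 1070 that was mostly LYZ, which encodes lysozyme. Endothelial markers summed to 0.772 to 4.52 and fibroblast markers to 0.444 to 8.97. In bulk RNA, fewer cells of a type and less RNA per cell cannot be told apart.

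The light chain was by far the most abundant of the 9 transcripts. B2M lay on chromosome 15 (44711487 to 44718877, GRCh38) and ranked between 157 and 321 among all genes. Its FPKM was 152 and 159 in HepG2 WT, 192 and 348 in HepG2 SR, 228 and 154 in Huh7 WT, and 197 and 165 in Huh7 SR, in the order of the replicate numbers. Both HepG2 SR libraries were above both HepG2 WT libraries, with means of 270 ± 111 and 156 ± 4.98 (SD, n = 2), and the Huh7 groups overlapped. Over the summed FPKM of the 3 heavy chains, B2M stood at 26.4 to 56.9 in 7 libraries and at 187 in HepG2 SR replicate 2.

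HLA-E was the main heavy chain of the 3 in 7 of the 8 libraries. It is encoded on chromosome 6 (30489467 to 30494205), and its FPKM was 3.53 and 3.07 in HepG2 WT, 3.52 and 1.83 in HepG2 SR, 2.32 and 3.99 in Huh7 WT, and 2.22 and 4.11 in Huh7 SR. The SR and WT libraries overlapped in both cell lines. HLA-E made up 64.3% to 98.1% of the summed FPKM of HLA-B, HLA-C and HLA-E in those 7 libraries and 26.8% in Huh7 WT replicate 1.

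HLA-B was low in every library but Huh7 WT replicate 1. Its FPKM was 0.568 and 0.571 in HepG2 WT, 0.326 and 0.0351 in HepG2 SR, 5.06 and 0.585 in Huh7 WT, and 0.781 and 0.754 in Huh7 SR. HepG2 SR lay below HepG2 WT without overlap, and the Huh7 groups overlapped because of the value of 0.585. HLA-C was lower than HLA-B in 7 of the 8 libraries, at 0.334 and 0.579 in HepG2 WT, 0.173 and 0 in HepG2 SR, 1.26 and 0.332 in Huh7 WT, and 0.456 and 0 in Huh7 SR. The highest value of each was thus in the same library. HLA-B and HLA-C lie on the minus strand of chromosome 6, and in the GENCODE 29 annotation the span of HLA-B (31269491 to 31357188) covers most of HLA-C (31268749 to 31272130). Of all stretches of 50 bases in their transcripts, 2.72% in HLA-B, 5.38% in HLA-C and 4.34% in HLA-E also occur in a transcript of another gene. Reads from these stretches fit either gene. The heavy chains are polymorphic, and these shares describe the reference sequence and not the alleles of these cell lines. The aligner and quantifier are not given, so whether reads of other alleles were counted is not known, and the low values may be uncertain. All 9 genes are in GENCODE 29, but 5013 of the 63241 identifiers in the file are not, so the values were made with an annotation that differs from it, and the overlaps and shared stretches given here and below describe GENCODE 29. Each reached an FPKM of 1 in a single library, and both were therefore left out of the tests, which required this level in 2 libraries.

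TAP1 was lower in SR than in WT without overlap in both cell lines. Its FPKM was 2.35 and 1.33 in HepG2 WT against 1.2 and 0.0661 in HepG2 SR, and 1.13 and 2.89 in Huh7 WT against 0.362 and 0.907 in Huh7 SR. Such an order in both lines held in 4.28% of all 15173 tested genes. Within pairs of the same replicate number the WT value was 1.96, 20.2, 3.11 and 3.19 times the SR value. TAP1 lies on the minus strand of chromosome 6 (32845209 to 32853978), where it overlaps PSMB9 and PSMB8-AS1 on the other strand. No source used here says that counting used strand, so reads in the overlap cannot be told apart, and PSMB9 itself was at or below 1.04 in every library.

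TAP2 was at 0.965 and 0.438 in HepG2 WT, 0.514 and 0.0306 in HepG2 SR, 2.68 and 1.37 in Huh7 WT, and 1.25 and 0.524 in Huh7 SR. The Huh7 SR libraries were below both Huh7 WT libraries, and in HepG2 the groups overlapped. The ratio of TAP1 to TAP2, subunits that work as a pair, was 1.73 to 3.04 in 6 libraries and 0.421 and 0.289 in the replicate 1 libraries of Huh7 WT and Huh7 SR. TAP2 (chromosome 6, 32821833 to 32838780) shares 31.3% of its stretches of 50 bases with another gene, and AL669918.1 covers it on the same strand in GENCODE 29, so its level may be uncertain.

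TAPBP was the second gene by mean FPKM in each group. Its FPKM was 10.2 and 12.1 in HepG2 WT, 8.39 and 1.84 in HepG2 SR, 13.6 and 4.26 in Huh7 WT, and 8.69 and 7.96 in Huh7 SR. It lies on chromosome 6 (33299694 to 33314387). The HepG2 SR libraries were below both HepG2 WT libraries, whereas both Huh7 SR libraries lay between the Huh7 WT libraries.

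The class I coactivator NLRC5 was split by library more than by group. Its FPKM was 3.63 and 3.54 in HepG2 WT, 3.46 and 0.205 in HepG2 SR, 0.371 and 6.13 in Huh7 WT, and 0.0613 and 3.98 in Huh7 SR. The 3 low values were those of the 3 libraries that stood apart, and in both replicate 1 libraries of Huh7 it was the lowest of the 9 genes. NLRC5 is encoded on chromosome 16 (56989485 to 57083531).

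IRF1 was at 5.44 and 5.06 in HepG2 WT, 4.51 and 2.76 in HepG2 SR, 3.11 and 7.87 in Huh7 WT, and 1.97 and 3.39 in Huh7 SR. HepG2 SR lay below HepG2 WT without overlap, and the Huh7 groups overlapped between 3.11 and 3.39. IRF1 lies on the minus strand of chromosome 5 (132481609 to 132490798) and is overlapped by C5orf56 and AC116366.3 on the other strand.

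The order of the genes by level was steady only at the top. B2M came first in all 8 libraries. In HepG2 WT, TAPBP (11.2 ± 1.31, SD, n = 2) was followed by IRF1 (5.25 ± 0.269), NLRC5 (3.58 ± 0.0615), HLA-E (3.3 ± 0.328) and TAP1 (1.84 ± 0.716) without overlap between neighbours, while TAP2 (0.702 ± 0.373), HLA-B (0.569 ± 0.00202) and HLA-C (0.457 ± 0.174) overlapped. In HepG2 SR and Huh7 WT each gene below B2M overlapped the next in the order of the means. In Huh7 SR, TAPBP (8.32 ± 0.518) was apart from HLA-E (3.17 ± 1.34) and every later neighbour overlapped.

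Whether the genes differ between resistant and parental cells was tested with limma on log2(FPKM + 1), in which a gene is called at an unadjusted p under 0.05 and a log2 fold change of at least 0.5 in size. Of the 9 genes, 7 passed the filter. In HepG2 SR versus HepG2 WT, 0 of 7 were called, against 2.14% of all tested genes, and as in every contrast below 0 of 7 reached an unadjusted p under 0.05 in limma. The fitted log2 fold changes were 0.73 ± 0.40 (SE) for B2M, -0.87 ± 0.53 for TAP1 and -1.23 ± 0.69 for TAPBP. NLRC5 was at -0.98 ± 1.07, IRF1 at -0.46 ± 0.49, TAP2 at -0.43 ± 0.45 and HLA-E at -0.26 ± 0.44. The limma p adjusted over all tested genes was 0.969 for HLA-E and 0.956 for each of the others. Much of this rested on HepG2 SR replicate 2, for without that library the differences lay between -0.37 for TAPBP and 0.30 for B2M, with TAP1 at -0.35. Without HepG2 SR replicate 1, B2M (1.15) and TAPBP (-2.09, limma adjusted p = 0.393) were called, but the HepG2 SR library that remains is the one that stood apart. In every fit that leaves out a library, here and below, its group keeps 1 library, which is assumed to vary like the libraries of the other groups. The share of all tested genes called is not given for such fits, so their calls show only how the results shift with the libraries.

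In Huh7 SR versus Huh7 WT, 0 of 7 genes were called, against 1.87% of all tested genes. The largest differences in size were those of TAP1, at -0.84 ± 0.53 (SE), IRF1, at -0.74 ± 0.49, and TAP2, at -0.67 ± 0.45, each with a limma adjusted p = 1. NLRC5 was at -0.44 ± 1.07, B2M at -0.06 ± 0.40, HLA-E at -0.00 ± 0.44 and TAPBP at 0.09 ± 0.69. Without the library labelled Huh7 WT replicate 1, IRF1 was called at -1.30 (limma adjusted p = 0.873), and without all 3 libraries that stood apart it was called at -1.01 (adjusted p = 0.346).

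Over both cell lines, 0 of 7 genes were called, against 3.93% of all tested genes. TAP1 came closest, at -0.85 ± 0.37 (SE), and TAP2 was at -0.55 ± 0.31 and IRF1 at -0.60 ± 0.35. NLRC5 was at -0.71 ± 0.76, TAPBP at -0.57 ± 0.49, HLA-E at -0.13 ± 0.31 and B2M at 0.33 ± 0.28. The median of the 7 was -0.57, beside -0.05 over all tested genes, and the limma adjusted p was 0.998 for each. Without the library labelled Huh7 WT replicate 1, TAP1 (-1.07) and IRF1 (-0.88) were called, each with an adjusted p = 0.699, and without HepG2 SR replicate 1 TAP1 was called (-1.11). Without the 3 libraries that stood apart, TAP1 was at -0.69 (limma adjusted p = 0.434), IRF1 at -0.60 (adjusted p = 0.436) and TAPBP at 0.20, and 0 of the 6 genes that then passed the filter were called. With all 8 libraries and no filter on low values, HLA-B was at -0.62 ± 0.44 and HLA-C at -0.47 ± 0.26, and neither was called.

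The replicate numbers were taken up in a fit with a replicate block, which compares SR with WT of the same number. Deviations from group means correlated between same-numbered libraries at r = 0.796 in Huh7 but 0.125 in HepG2. Pairing by number thus has little support in HepG2, and calls with the block there and over both lines carry this limit. With this block TAP1 was called in HepG2 (limma adjusted p = 0.53, 9.17% of all tested genes called), in Huh7 (adjusted p = 0.921, 4.41% called) and over both lines (adjusted p = 0.471, 9.95% called). TAP2 was called in Huh7 (adjusted p = 0.921) and over both lines (adjusted p = 0.471). The fold changes are those given above, and their standard errors over both lines were 0.21 for TAP1 and 0.18 for TAP2.

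Within the 4 same-numbered pairs, TAP1, TAP2, NLRC5 and IRF1 were lower in SR in all 4. That makes 4 of the 7 tested genes, against 12.4% of all tested genes. The HepG2 pairs carry the limit given above, since pairing by number has little support there. None of the 7 was higher in all 4, as 9.16% of all tested genes were. The difference SR minus WT on the log2(FPKM + 1) scale ran from -0.61 to -1.13 in TAP1, from -0.38 to -0.71 in TAP2, from -0.23 to -1.01 in IRF1 and from -0.05 to -1.91 in NLRC5. HLA-C, which was not tested, was also lower in all 4 pairs, with differences of -0.19 to -0.66. HLA-B, HLA-E and TAPBP were lower in 3 of 4 pairs, and B2M in 1 of 4. TAPBP moved furthest apart, from -2.20 in the replicate 2 pair of HepG2 to 0.77 in the replicate 2 pair of Huh7. In 3 of the 4 pairs both libraries were of like profile, with r at 0.958 in HepG2 replicate 1, 0.965 in Huh7 replicate 1 and 0.914 in Huh7 replicate 2. In HepG2 replicate 2, where r was 0.806, 6 of the 9 genes had their lowest difference or, in B2M, their highest.

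Counted by groups that do not overlap, 4 of the 7 tested genes (TAP1, TAPBP, NLRC5 and IRF1) lay below WT in HepG2 SR, against 20.1% of all tested genes. In each of these 4 the lower SR value was that of HepG2 SR replicate 2, a library that stood apart. In HepG2 SR replicate 1, NLRC5 was at 3.46 FPKM against a lower WT value of 3.54, and TAP1 at 1.2 against 1.33. B2M alone lay above, as 18.1% of all tested genes did. In Huh7 SR, TAP1 and TAP2 lay below, against 12.9% of all tested genes.

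The SR difference was then compared between the cell lines, and 0 of 7 genes were called, against 0.606% of all tested genes. The difference of the differences, Huh7 minus HepG2, was 1.32 ± 0.97 (SE) for TAPBP and -0.78 ± 0.56 for B2M, each with a limma adjusted p = 1. For TAP1 it was 0.03 ± 0.75. Without the library labelled HepG2 SR replicate 1, TAPBP was called at 2.18 (adjusted p = 0.788).

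Between the cell lines over WT and SR, 0 of 7 genes were called, against 4.90% of all tested genes. TAP2 had the largest difference, 0.69 ± 0.31 higher in the libraries labelled Huh7 (SE, limma adjusted p = 0.813). It reached an FPKM of 1 in Huh7 libraries alone and so passed the filter only through the group where it is high, which favours a difference in this direction. Without the filter it was not called (limma adjusted p = 0.75). The other 6 lay between -0.28 for NLRC5 and 0.19 for TAPBP. With the replicate block, where 16.4% of all tested genes were called, TAP2 was called as well (limma adjusted p = 0.166), and without the library labelled Huh7 WT replicate 2 it was called at 0.85 (adjusted p = 0.497), both after the same filter.

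The 9 genes did not vary as 1 group across the libraries. Over the 8 libraries, Pearson's r of log2(FPKM + 1) was 0.95 between HLA-E and NLRC5, 0.89 between TAP1 and IRF1, 0.87 between NLRC5 and IRF1 and 0.80 between TAP1 and NLRC5. HLA-B was close to TAP2 (0.85) and HLA-C (0.84), and its r with NLRC5 was -0.29. B2M ran opposite to HLA-E (-0.84), TAP1 (-0.80) and NLRC5 (-0.77). These values describe 8 libraries of which 3 stand apart, so they carry that separation, and no p is given. TAP1 and TAP2 had an r of 0.42.

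Among all tested genes, the nearest in pattern to TAP1 was RNF19B (r = 0.998 over the 8 libraries), to NLRC5 PRSS8 (0.993) and to HLA-E NADSYN1 (0.987). IRF1 was nearest to ZNF382 (0.985), B2M to FBH1 (0.979), TAP2 to AVL9 (0.979), TAPBP to MYL9 (0.97) and HLA-B to NR4A3 (0.959). For HLA-C, MED9 (0.959) was the nearest tested gene with a symbol. In the 100 nearest tested genes of each member, another member occurred only for HLA-E, where it was NLRC5. HLA-B and HLA-C were not tested and so could not occur there.

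The other genes of the pathway were followed as 7 lists with 53 genes, of which 46 passed the filter. In HepG2, 1 of 46 was called, against 2.14% of all tested genes. This was OAS1, an interferon-induced sensor of double-stranded RNA, at -1.93 ± 0.80 (SE, limma adjusted p = 0.956). OAS1 was not called without the filter, with quantile normalization or with HepG2 fitted alone. With the replicate block 3 of 46 were called, OAS1, GBP1 and ISG15, against 9.17% of all tested genes, and without HepG2 SR replicate 2 the count was 0. In Huh7, 2 of 46 were called, against 1.87% of all tested genes. These were the antiviral GTPase gene MX1 at -1.86 ± 0.68 (adjusted p = 1) and JAK1, a kinase of interferon receptors, at -1.31 ± 0.52 (adjusted p = 1). MX1 was not called with a pseudocount of 0.1, nor JAK1 with Huh7 fitted alone. With the replicate block 5 of 46 were called, against 4.41% of all tested genes. Without the 3 libraries that stood apart, the called genes went both ways. IFI6 (1.72), IFIT1 (1.62) and IFIT3 (1.31) were higher in SR. JAK2 (-1.49), CANX (-1.08), MX1 (-1.08), JAK1 (-1.07) and GBP2 (-1.06) were lower. The genes called with the block, and those named for settings without some libraries, were named after their values were seen.

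Over both cell lines, 5 of 46 pathway genes were called, against 3.93% of all tested genes, and all 5 were lower in SR. OAS1 was at 18.8 and 11.2 FPKM in HepG2 WT, 7.32 and 1.01 in HepG2 SR, 34.4 and 11.7 in Huh7 WT, and 11.5 and 6.3 in Huh7 SR. Its log2 fold change was -1.54 ± 0.56 (SE), with SR below WT without overlap in both lines. MX1 was at 4.22 and 3.24 in HepG2 WT, 2.85 and 0.0916 in HepG2 SR, 9.03 and 6.32 in Huh7 WT, and 0.624 and 2.46 in Huh7 SR. Its log2 fold change was -1.53 ± 0.48, and SR again lay below WT in both lines. JAK1 fell from 42.1 and 44.5 to 24.7 and 31.3 in HepG2 and from 116 and 45.4 to 38.8 and 21 in Huh7 (-0.97 ± 0.37). UBE2L6, which encodes the conjugating enzyme for ISG15, was at -0.75 ± 0.27, and the guanylate-binding protein gene GBP1 at -0.67 ± 0.26. GBP1 reached an FPKM of 1 in 3 WT libraries and in no SR library, and so passed the filter only through the group where it is high. It was called without the filter too (-0.67 ± 0.22, limma adjusted p = 0.819) and was not called with quantile normalization. The limma adjusted p of each of the 5 was 0.998. With the replicate block 6 of 46 were called, these 5 with ISG15 (-1.16 ± 0.31, limma adjusted p = 0.471), against 9.95% of all tested genes. Without the library labelled HepG2 SR replicate 2, MX1 was at -1.07 and no other pathway gene was called. The calls also shifted when other libraries were left out. Without the 3 libraries that stood apart, the called genes were OAS1, MX1, JAK1, JAK2 and GBP2, which were lower, and IFI6, which was higher.

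By list, 4 of the 12 tested interferon-induced genes and 1 of the 12 interferon signalling genes were called over both lines, all lower. Of all tested genes 3.93% were called. As given above, all of these calls but that of MX1 were lost without the library labelled HepG2 SR replicate 2. The medians of these lists were -0.63 and -0.45, beside -0.05 over all tested genes. Peptide supply and trimming (the immunoproteasome subunits, the proteasome activator and the peptidases ERAP1 and ERAP2) had 0 of 6 called and a median of -0.32. The loading chaperones had 0 of 4 called (median -0.16), the class I-like chains 0 of 2 (-0.29) and the enhancer factors, which include the RFX and NF-Y subunits, 0 of 9 (0.12). Of the class II genes only CD74 passed the filter, and it was not called. In pairs, 5 of the 12 interferon-induced genes, 3 of the 12 signalling genes and 12 of all 46 were lower in SR in all 4. A further 2 of 46 were higher in all 4. Of all tested genes 12.4% were lower and 9.16% higher in all 4. Pairing by number has little support in HepG2, which limits these counts too.

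Between the cell lines over WT and SR, 2 of 46 pathway genes were called, against 4.90% of all tested genes, and both were loading chaperones. CANX, encoding calnexin, was higher in the libraries labelled Huh7 (1.13 ± 0.47, SE), and CALR, encoding calreticulin, was lower (-0.67 ± 0.28), each with a limma adjusted p = 0.813. CANX was not called with a pseudocount of 0.1 or without the filter. CALR was not called with quantile normalization. Without the 3 libraries that stood apart, CANX was at 0.35 and CALR at -0.48. Calnexin and calreticulin hold the heavy chain before and after it joins the light chain. CANX was at 304 and 312 FPKM in the replicate 1 libraries of Huh7 and between 74.2 and 160 in the other 6. With the replicate block 5 of 46 were called, these 2 with OAS1, IFNAR2 and SOCS1, against 16.4% of all tested genes. For the difference of the SR contrast between the cell lines, 0 of 46 were called, and 1 of 46 with the block, against 3.53% of all tested genes.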

How the data were processed

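Messenger RNA from WT and SR cells of HepG2 and of Huh7 was enriched with oligo(dT) beads and sequenced, with 2 libraries per group. The authors deposited FPKM values per Ensembl gene and library, normalized for length and depth. The submitters' processing notes name fastp 0.20.0 and GRCh38, and the aligner, quantifier, annotation and strand setting are not given in the sources used here. All labels give the same batch. The authors used edgeR, and since FPKM are not counts that test was not repeated.

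Symbols were paired with 42338 of the 63241 identifiers. The 15173 genes that reached an FPKM of 1 in 2 or more libraries entered limma as log2(FPKM + 1), with version 3.58.1 in R 4.3.3 (eBayes with trend, two-sided, Benjamini-Hochberg adjustment) and 1 model of 4 group means with 4 residual degrees of freedom. Calls used the study's thresholds, an unadjusted p under 0.05 and a log2 fold change of at least 0.5. A pseudocount makes fold changes of low genes too small. Read depth cannot be taken from these values, so no counting interval is given. The model was tested on simulated data with 200 changed genes.

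Text names all 9 class I genes, the pathway genes called in an SR or cell line contrast (up to 3 of smallest p per list and contrast, plus GBP1 over both lines, named after its values were seen) and the 3 tested genes of nearest pattern per class I gene, of which the first with a symbol is printed. Members and lists were chosen with earlier results of these data known. Deviations from group means correlated between same-numbered SR and WT libraries at r = 0.125 in HepG2 and 0.796 in Huh7. Pairing by number thus has support in Huh7 and little in HepG2. The replicate block (2 residual degrees of freedom) pairs libraries in both lines and is given where it changes a call. Alternatives were a pseudocount of 0.1, no filter, TPM scaling, quantile normalization, a fit of each line alone, the replicate block and leaving out each library. A fit without the 3 libraries that stood apart was chosen after seeing the data. Positions and overlaps came from GENCODE 29 (GRCh38), which differs from the annotation of the files, and promoters from RefSeq (GRCh38.p14). Python 3.11.15, pandas 2.3.3 and matplotlib 3.10.9 were used.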

Additional observations from a re-analysis of the deposited data

How the results depend on the processing

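Of 499 recomputed fold changes of the 7 tested class I genes (35 values), 429 kept direction and side of the threshold, 15 became called, 55 changed sign and 0 lost a call, since none had been called. No second identifier with the symbol of a class I gene was found, so the alternative of adding haplotype copies gave no value. Only 42338 of the 63241 identifiers were paired with a symbol, so a copy without a symbol would have been missed. With the replicate block the called class I genes numbered 1 in HepG2, 2 in Huh7, 2 over both lines and 1 between lines, and the called pathway genes 3, 5, 6 and 5 in HepG2, in Huh7, over both lines and between lines, and 1 for the difference of contrasts. Quantile normalization left 0 pathway genes in HepG2 and 4 over both lines, where GBP1 was lost. No filter and TPM each gave 3 in Huh7 and 6 over both lines, with ERAP1 of the peptide supply list gained. Fitted alone, HepG2 gave GBP1 in place of OAS1 and Huh7 gave MX1 without JAK1. Between lines 1 pathway gene was called with a pseudocount of 0.1, no filter, TPM, quantile normalization or without the 3 libraries that stood apart. Without those 3 libraries, chosen after seeing the data, the calls in Huh7 changed, with IRF1 lower and pathway genes both lower and higher. That fit has 1 residual degree of freedom, so the lone libraries are assumed to vary like HepG2 WT. For fits that leave out libraries, here and in the next paragraph, the share of all tested genes called is not given. Counts from such fits show only how the calls shift.

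Leaving out each library in turn gave 0 to 2 called class I genes in HepG2, 0 to 1 in Huh7, 0 to 2 over both lines, 0 to 1 between lines and 0 to 1 for the difference of the SR contrasts. Called pathway genes ranged from 0 (5 of the libraries, HepG2 SR replicate 2 among them) to 10 (without HepG2 SR replicate 1) in HepG2, from 1 (without any single HepG2 library) to 6 (without Huh7 WT replicate 2) in Huh7, from 1 (without HepG2 WT replicate 1 or HepG2 SR replicate 2) to 8 (without HepG2 SR replicate 1 or Huh7 WT replicate 2) over both lines, and from 0 to 10 (without Huh7 WT replicate 2) between lines.

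Signs changed as follows on the log2 scale. For HLA-E, fold changes with each library left out ran from -0.60 to 0.07 in HepG2, from -0.34 to 0.33 in Huh7, from -0.30 to 0.04 over both lines, from -0.12 to 0.22 between lines and from -0.08 to 0.60 for the difference of contrasts. B2M ran from -0.34 to 0.22 in Huh7 and from -0.34 to 0.09 between lines. TAP1 ran from -0.20 to 0.32 between lines and from -0.49 to 0.55 for the difference, where TAP2 ran from -0.56 to 0.07. TAPBP ran from -0.64 to 0.82 in Huh7 and from -0.24 to 0.62 between lines. NLRC5 ran from -1.63 to 0.75 in Huh7, from -0.88 to 0.31 between lines and from -0.65 to 1.73 for the difference. IRF1 ran from -0.47 to 0.09 between lines and from -0.84 to 0.27 for the difference. Quantile normalization gave 0.06 for HLA-E in Huh7, 0.01 for B2M between lines and -0.09 for TAP1 in the difference, and a pseudocount of 0.1 gave 0.28 for TAP2 in the difference. Without the 3 libraries, HLA-E was at 0.07 in HepG2, 0.04 in Huh7, 0.06 over both lines and -0.04 for the difference, B2M at 0.10 in Huh7, TAP1 at -0.68 for the difference, TAPBP at 0.20 over both lines and -0.64 between lines, NLRC5 at 0.40 between lines and -0.48 for the difference, and IRF1 at 0.09 between lines. The cause was not tested. TAP1, TAP2 and IRF1 kept a negative SR difference in HepG2, in Huh7 and over both lines in every setting in which they were fitted.

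TPM scaling moved the split of all called genes, from 133 higher and 192 lower to 86 and 239 in HepG2, from 143 and 140 to 108 and 204 in Huh7 and from 288 and 308 to 198 and 449 over both lines. With 2 libraries per group, 0 genes passed an adjusted p under 0.05 in limma for any SR contrast, and 325, 283 and 597 passed an unadjusted p under 0.05 in HepG2, in Huh7 and over both lines.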
